A study of Drosophila melanogaster with 4 samples.

Results

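The regions described here are runs of closely spaced ChIP-seq peaks, 7 to 10 kb long, on the chromosome arms of Drosophila melanogaster. A run was a chain of at least 5 peaks with gaps of at most 2000 bp between neighbours, and a run was kept when its length from the first to the last base was at least 7000 bp and under 10000 bp. The rule left 76 of the 114 runs on the arms, with 628 of the 7683 peaks of the whole list and 23.9% of the 2625 arm peaks. Arm 2L had 13 of them, arm 2R had 12, arm 3L had 20, arm 3R had 18 and the X chromosome had 13, while chromosome 4 had 0. The members were chosen by the positions and spacing of the called peaks, so the number, length and density of peaks are descriptions and were not tested.

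The series mapped the binding of Deformed (Dfd) in embryos labelled 0 to 8 h. It holds 2 ChIP libraries made with a rabbit polyclonal antibody against green fluorescent protein (GFP), and 2 libraries of input DNA. All 4 carry the strain label Dfd-GFP-Pacman and the genotype label PBac{y[+]-attP-3B}VK00037: a genomic Dfd transgene with GFP in place of the stop codon, so the antibody reads the tagged copy and not the protein of the endogenous gene. The collection text of the labels describes another time window and another stock, and the stage is given here as labelled. The deposited result was 1 list of peaks for the whole series, so the replicates could not be compared, the read depth is unknown, and all errors below describe the spread among runs or peaks.

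Dfd is a Hox protein, one of the homeodomain transcription factors that give body segments their identity along the head to tail axis. It gives the mandibular and maxillary segments their identity, binds short AT-rich sites, often beside the cofactor Extradenticle, and maintains its own transcription through an autoregulatory enhancer. A peak caller marks each stretch where ChIP fragments pile up beyond the local or genome-wide background, and gives it a score from its most enriched point. Here the score was read as −log10 p, so that a higher score means stronger evidence of enrichment and not directly more protein bound.

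The runs were of similar make. Their median length was 8438 bp (quartiles 7891 to 8744 bp, range 7033 to 9435 bp), and 28 of the 76 were at least 8600 bp and under 9000 bp long. A run held a median of 8 peaks (range 6 to 11), which covered a median of 56.0% of its length (range 42.1 to 72.7%). The median gap between neighbouring peaks was 398 bp (quartiles 199 to 708 bp), and the largest gap in a run had a median of 1183 bp. Most peaks were weak, with a median score of 13.02 (quartiles 10.6 to 15.84), beside a median of 13.18 in the other runs and 16.47 for arm peaks outside runs. The median of all 7683 peaks of the list was 13.7, so the member peaks were close to its typical peak. Of the member peaks, 90 of 628 (14.3%) scored in the top 25% of the list, 19.12 or more. The background for this call was 25.1% of all 7683 peaks; since the same scores made the peaks callable, nothing is read from the difference.

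Most runs had a single strong peak among weaker ones. The strongest peak of a run had a median score of 35.21 (quartiles 30.69 to 39.36, range 15.53 to 55.16). The second-highest peak of a run had a median score of 16.8 (range 11.28 to 24.68), and the ratio of the strongest score to the second had a median of 1.94 and was under 1.5 in 12 runs. The strongest peak was also the widest of its run in 57 of 76 runs, with a median width of 1367 bp, against 392 bp for the other 552 member peaks. Seen by call, 70 of the 76 strongest peaks were in the top 25% of the list, and 20 of the other 552 (3.62%), beside 25.1% of all 7683 peaks. The strongest peak was picked by its score, so this split follows in part from the picking and was not tested. The highest scores were 55.16 on 2L (run at bases 13853400 to 13861770), 50.27 on 3L (run at bases 21299759 to 21308162) and 46.46 on 3R (run at bases 25707851 to 25716776). Of the 90 member peaks in the top 25%, 70 were the strongest of their run.

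In most runs the strongest peak lay at a similar distance from one end. The midpoint of the strongest peak was a median of 2465 bp from the nearer end of the run (quartiles 1928 to 2657 bp). In 54 of 76 runs (71.1%) it was 2 to 3 kb from that end, in 16 it was 1 to 2 kb, in 4 under 1000 bp and in 2 over 3 kb. The nearer end was the one with the lower coordinate in 41 of 76 runs (53.9%, 95% Clopper-Pearson interval 42.1 to 65.5%), so the runs lay in both directions along the arms. In the 53 runs of 8 kb or more, the distance to the nearer end had a median of 2550 bp (quartiles 2361 to 2672 bp). In the 23 runs under 8 kb that distance was 1527 bp (quartiles 1086 to 1957 bp). The distance to the farther end was alike in both sets, with medians of 6077 bp in the longer runs (quartiles 5852 to 6259 bp) and 5929 bp in the shorter runs (quartiles 5545 to 6234 bp). By these medians, the short runs were mostly short on the side of the strongest peak. The 4 runs with that peak under 1000 bp from an end were all among the short runs and lower their nearer-end median.

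**Figure D1:**
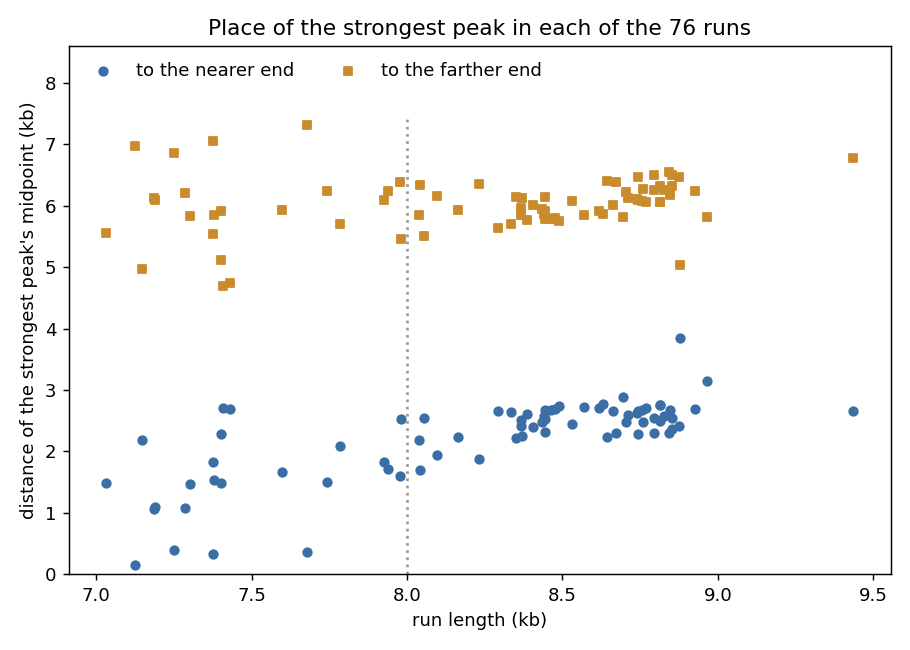
Distance from the midpoint of the strongest peak to the nearer end (blue circles) and to the farther end (orange squares) of each of the 76 runs, in kb, against run length in kb; the dotted line marks 8 kb. Above 8 kb most circles lie near 2550 bp and most squares near 6077 bp, and below 8 kb the circles drop while most squares stay level.

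To compare the peaks of different runs, all 76 were put on a common axis. Each run was turned or not, and shifted by up to 1000 bp, so that the bases covered by its peaks best matched the share of runs covered in 50-bp bins, and this was repeated until no run changed direction. Scores took no part in the placing. Wide peaks weigh more in it, however, and the strongest peak was the widest of its run in 57 of 76 runs. Orientation came out as forward for 38 runs and reversed for 38, and forward runs made up 8 of 13 on 2L, 5 of 12 on 2R, 9 of 20 on 3L, 8 of 18 on 3R and 8 of 13 on X. The absolute shift had a median of 125 bp, and 1 run reached the limit. Distances on this axis are given from the start of the first bin covered in at least 50% of the runs.

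The placed runs shared 7 zones, stretches covered by a peak in at least 50% of the runs, with troughs between them. Zone 1 spanned 0 to 300 bp, zone 2 spanned 750 to 1550 bp, and zone 3, the longest at 1550 bp, spanned 1850 to 3400 bp. Zones 4 to 7 spanned 3750 to 4400 bp, 5600 to 6350 bp, 6650 to 7400 bp and 8050 to 8600 bp. The trough between zones 4 and 5 was 1200 bp long, and at 5000 bp none of the 76 runs was covered. Coverage fell to 4.18% of runs between zones 6 and 7, to 9.32% between zones 3 and 4 and to 11.6% between zones 1 and 2, but only to 32.3% and 25.6% in the troughs before zone 3 and before zone 6. On this axis the pattern was uneven and different when read from either end, with the strong zone near one end and the emptiest trough beyond the middle. The placing seeks the best match of covered bases, so the shared zones are in part a product of it and are described only.

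**Figure D2:**
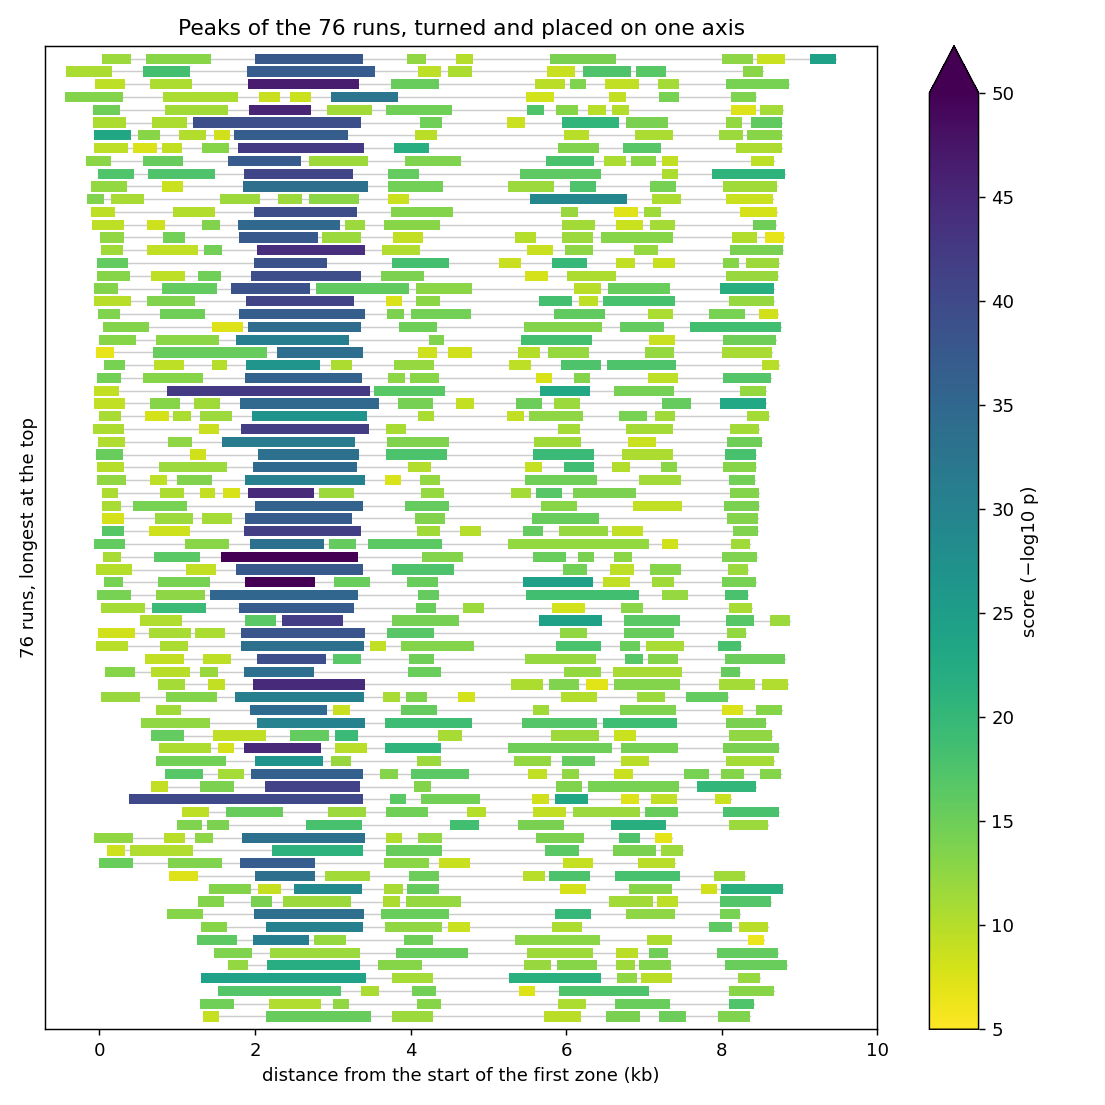
Peaks of the 76 runs on the common axis, in kb from the start of zone 1; each row is a run, with the longest at the top, each bar is a peak coloured by its score (−log10 p), and grey lines join the peaks of a run. Dark bars form a column at 1850 to 3400 bp, almost no bar crosses 5000 bp, and the shorter runs at the bottom mostly begin later and end at the same place.

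Zone 3 held the strong peak. All 76 runs had a peak overlapping it by at least 100 bp, up to 97.4% of runs were covered at a single position, and the highest score in the zone had a median of 35.21 (quartiles 30.69 to 39.36). In 69 of 76 runs (90.8%) the strongest peak of the run was there. In the other zones the median of the highest score ran from 11.84 in zone 1 (quartiles 10.02 to 13.55) to 14.09 in zone 4 (quartiles 12.39 to 15.53). Zones 2, 5, 6 and 7 had medians of 13.11, 13.78, 13.08 and 13.55. Those 6 zones had overlapping quartiles, and zone 3 stood clear of all of them. A peak was present in 51 runs in zone 1, in 71 in zone 2, in 72 in zone 4, in 75 in zone 5, in 72 in zone 6 and in 70 in zone 7.

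**Figure D3:**
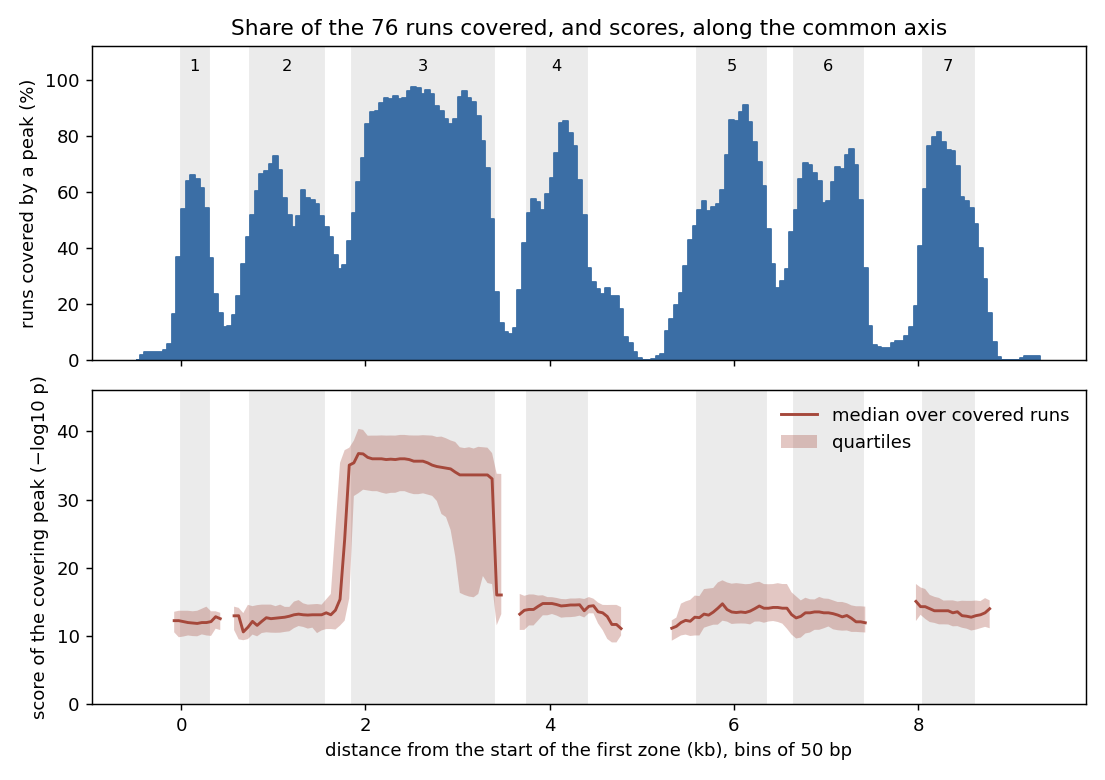
Upper panel, percentage of the 76 runs covered by a peak along the common axis in 50-bp bins; lower panel, score (−log10 p) of the covering peaks, with the median as a line and the quartiles as a band, where at least 10 runs were covered. Grey stripes mark zones 1 to 7; zone 3 has a median score of 35.21 for its highest peak, and the other 6 zones have medians between 11.84 and 14.09.

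The run with the highest peak shows the pattern in the forward direction. On 2L, its first peak, at bases 13853400 to 13853640, scored 14.3, and the second, at bases 13854086 to 13854756, scored 14.16. The third, at bases 13855205 to 13856101, was the strong one at 55.16. Peaks of 15.22 and 15.31 followed, then an open stretch up to base 13858786, where a peak of 24.68 began. The last peaks scored 9.31, 11.42 and 14.3 and ended at base 13861770. All 7 zones were occupied, and the open stretch was the trough between zones 4 and 5.

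The run on 3R at bases 25707851 to 25716776 shows the same order reversed. Read from its high-coordinate end, it began with a peak of 9.56 at bases 25716381 to 25716776 and one of 10.6 at bases 25715526 to 25716058. The strong peak, of 46.46, lay at bases 25713382 to 25714805, and a peak of 15.53 lay beyond it at bases 25712349 to 25712967. After the open stretch came 4 peaks scoring 9.71, 13.78, 9.28 and 11.1, and the last, of 14.16, ended the run at base 25707851. These runs lie on different arms, and each had 9 peaks.

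The end zones lie so far apart that only runs near or above 8 kb can reach both, so the following counts describe which end was missing. Of the 53 runs of 8 kb or more, 46 had peaks in both zone 1 and zone 7, and 40 had peaks in all 7 zones. Of the 23 runs under 8 kb, none had both end zones, 20 lacked zone 1 and 4 lacked zone 7, including 1 that lacked both. In 17 of the 23 the strongest peak was in zone 3. The rest lacked zone 1 and had their strongest peak nearer the zone 7 end, so as placed they were short on the side away from it. On the common axis, the longer runs began at a median of −29 bp (quartiles −72 to 28 bp) and ended at 8649 bp (quartiles 8453 to 8756 bp). The shorter runs began at a median of 1002 bp (quartiles 696 to 1304 bp) and ended at 8599 bp (quartiles 8334 to 8700 bp). Their strongest score was lower, with a median of 26.79 (quartiles 18.70 to 33.74) against 37.06 (quartiles 33.83 to 40.78) in the longer runs. The 3 shortest were on 2L at bases 21597541 to 21604573, on X at bases 722139 to 729264 and on X at bases 8842961 to 8850108, with strongest scores of 15.53, 17.45 and 17.59. The limits of the rule fell between 6967 and 7033 bp at the lower end, where the run just outside lay on X at bases 20708258 to 20715224 with a strongest score of 23.01. At the upper end they fell between 9435 bp, the run on X at bases 16235018 to 16244452, and 11062 bp, the run on 3R at bases 15980359 to 15991420 with a strongest score of 100.32.

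Each run was set against the other 75 in the direction found and in the opposite one, with the best shift in both. The placing picked the direction with the better match of covered bases, so the higher overlap in it is fixed by the method and only its size is described. Inside the peaks of a run, a median of 66.9% of the other runs were covered in the direction found and 57.3% in the opposite direction. In its gaps, 33.7% of the other runs were covered in the direction found and 45.0% in the opposite direction. The scores, which had not been used, followed the mean score of the other runs along the axis with a median Spearman rank correlation of 0.64 in the direction found and −0.08 in the opposite direction. The correlation was higher in the direction found in 71 of 76 runs. That number was 59 with a single run as template, 61 with no shift and 54 when peaks were placed by midpoints of a fixed 300-bp width, which leaves peak width out of the placing. The correlation runs over 50-bp bins that share peaks, and in this list strong peaks are also wide, so scores and positions are not independent and no p is given.

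Likeness was not limited to the strong peak. With direction taken from the strongest peak alone, and that peak left out, the positions of the remaining peaks matched those of the other runs better in that direction than in the opposite one in 74 of 76 runs. Pearson's r over bins had a median of 0.62 in the direction of the strongest peak and 0.34 in the opposite direction. The place of the peak left out stays visible as a gap, so the stretch from 1000 to 6500 bp beyond its midpoint, towards the farther end, was also read alone. With the best shift in each direction, that stretch matched the other runs with a median r of 0.54 as it lay and 0.36 turned round within its window. With those shifts, the order as it lay matched better in 64 of 76 runs, with 12 exceptions among both long and short runs. Without a shift, the median r as it lay was 0.41 (quartiles 0.25 to 0.55, range −0.40 to 0.75). No turned-round value without a shift was set beside it, so it does not bear on direction.

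**Figure D4:**
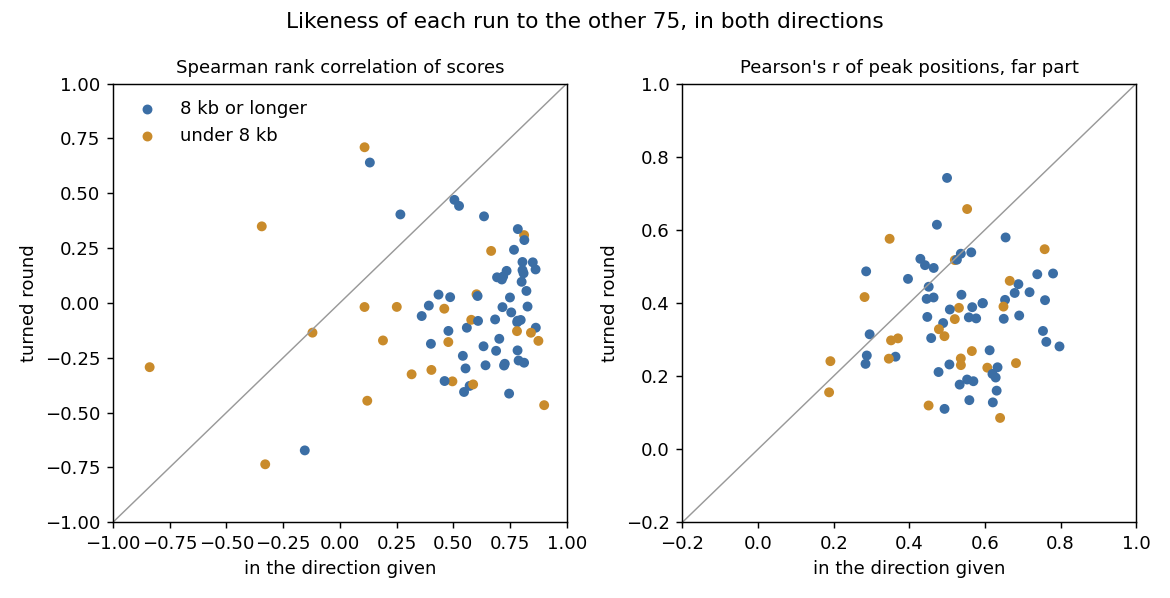
Each point is a run, blue for 8 kb or longer and orange for under 8 kb; the horizontal axis gives its likeness to the other 75 runs in the direction given, and the vertical axis its likeness when turned round. In the left panel, Spearman rank correlation of scores along the axis, 71 of 76 points lie below the diagonal. In the right panel, Pearson's r of peak positions in the stretch beyond the strongest peak, with the best shift in each direction, 64 of 76 do.

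As placed, a small set of runs departed from the pattern. In 7 of 76 the strongest peak was outside zone 3, and 6 of these were under 8 kb long. Their strongest scores ran from 15.89 to 29.14 with a median of 17.59, and in 4 of them the strongest peak lay in zone 7. The run on X at bases 722139 to 729264 had scores between 10.34 and 17.45, and that on 3R at bases 26143204 to 26150453 between 9.71 and 15.89. These were the 2 runs with the most even scores, and the peaks lying mostly or wholly in zone 3 scored 12.47 and 10.34 in the X run and 11.69 in the 3R run. The X run had the highest overlap with the others, at 75.4% of other runs covered inside its peaks, but its peaks covered the smallest share of any run, 42.1%. Its stretch beyond the strongest peak matched the other runs with a Pearson's r of 0.191 as it lay and 0.241 turned round. The run on 2L at bases 10947170 to 10955982 was hard to turn, with a Pearson's r of 0.603 in the direction found and 0.601 in the opposite one. Its strongest peak, of 29.14, would lie in the strong zone in the opposite direction only. The score correlation of this run was 0.13 in the direction found and 0.64 in the opposite one. It was −0.34 and 0.35 on 2L (bases 22408116 to 22415712), and 0.11 and 0.71 on X (bases 8842961 to 8850108). For the X run from base 722139 it was −0.84 and −0.29, and in the rest of the 7 it was higher in the direction found. Whether any of the 7 was placed the wrong way round was not tested.

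The lowest overlap, 56.1%, belonged to a run on 3R at bases 23347034 to 23355912. Its strong peak, of 32.46, had its midpoint 3849 bp from the nearer end, beyond every other run, and followed 2 weak peaks of 8.71 and 8.64 that lay in zone 3. The next lowest were on 2L at bases 22408116 to 22415712, at 60.2%, and on 2R at bases 5368532 to 5377496, at 60.5%. After the X run, the highest overlaps were 72.2% on 3R (bases 26222096 to 26230138), 72.2% on 3L (bases 19841829 to 19850397), 72.2% on X (bases 10161568 to 10170010) and 72.1% on 3L (bases 15923365 to 15930739).

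Number of peaks and evenness of score varied around the common order. The 4 runs with most peaks had 11 each, on 2R at bases 17626149 to 17634766 and 17697167 to 17705093, and on 3L at bases 2448048 to 2456492 and 16938984 to 16947859. The 5 with fewest had 6 each, on 2L at bases 687151 to 695794 and 8452804 to 8460840, on 3L at bases 9263949 to 9271134 and 15923365 to 15930739, and on X at bases 8842961 to 8850108. One of these last, on 2L from base 687151, had all 7 zones occupied by 6 peaks, with a strong peak of 42.33, while the other four had peaks in 6, 6, 6 and 5 zones. The largest ratios of the strongest to the weakest score in a run were 6.33 on 2L (bases 18052021 to 18060117) and 6.16 on 3L (bases 16938984 to 16947859). Median scores per run ran from 10.75, 10.82 and 10.87 at the runs on 3R from base 23347034, on 2L from base 14642701 and on 3R from base 21551803, to 17.45, 17.77 and 18.04 at the runs on X from base 13999147, on 3L from base 110424 and on 2L from base 8452804.

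The arms gave similar values. The strongest score had a median of 34.21 for runs of 2L, 36.18 for those of 2R and 35.29 for those of 3L. It was 34.23 for runs of 3R and 37.79 for those of X, and the quartiles of all 5 arms overlapped. Median lengths lay between 8349 bp on X and 8644 bp on 2L. Neighbouring runs of an arm were a median of 1171 kb apart (range 62.4 to 5239 kb). The nearest arm peak outside a run was a median of 40443 bp away (quartiles 19590 to 77472 bp), and 12 of 76 runs had one within 10 kb. The rule itself leaves more than 2000 bp between a run and the next peak, and drops chains of 10 kb or more. The spacing of other arm peaks was not set beside these distances, so no trait of the runs is read from them.

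Runs elsewhere in the genome, which had no part in the common axis, were then placed on it with shifts of up to 3000 bp. The same rule gave 5 runs on the scaffolds of placed heterochromatin (Het) and 12 on the unplaced sequences U and Uextra. Of the 5 Het runs, 3 matched the axis with a Pearson's r of at least the lower quartile of the arm runs, 0.68. They lay on 2LHet at bases 261266 to 269871, on 2RHet at bases 1269797 to 1278610 and on 2RHet at bases 3279734 to 3288428, with r of 0.73, 0.83 and 0.81 and lengths of 8606, 8814 and 8695 bp. Their strongest scores, 41.71, 44.49 and 26.89, were in zone 3. None of the 12 runs on U and Uextra reached that r, and their median was 0.43. Among the 28 arm runs under 7 kb, 4 reached it, with a median of 0.56, and 16 had their strongest peak in zone 3. Of the 10 arm runs of 10 kb or more, 7 were too long to place, and the other 3 had r of 0.44, 0.48 and 0.55, below that quartile. The wider shift gives these runs more freedom to match, and shorter runs have fewer peaks, so the values of different sets were not tested against each other.

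The rule sets how many runs are seen. With a joining gap of 1000 bp, 17 runs remained in the length range, and without the lowest 25% of arm peaks by score 44 remained. No genome sequence or annotation of the release used in the list was at hand, so what lies under the runs, such as genes, enhancers or repeated sequence, was not tested, and no gene is named.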

How the data were processed

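The only file was a peak list on FlyBase release 5, per the file headers, whose entries name MACS as their source and give the bounds and a score of each peak. The submitters' processing notes name MACS2, BWA and CASAVA (1.7.0.2 and 1.7.0.3), without roles. Not given in the sources used here are the threshold, whether replicates were pooled, and how reads that align to several places were handled. The score that the authors deposited was read as an unadjusted −log10 p of the peak caller, since its unit is unstated and 3872 of the 7683 scores (50.4%) equal, to 2 decimals, the −log10 upper tail of a Poisson distribution at a rate of 80.06, searched from 20 to 400 in steps of 0.01. Of rates more than 1 away, the best matched 1987 (25.9%).

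Runs were chained, placed and summarised with Python 3.11.15, numpy 2.4.6, scipy 1.17.1 and pandas 2.3.3. The placing was tried on noisy copies of single runs, turned at random. That trial cannot show how runs without a shared order would be placed. Zones closer than 100 bp were joined. Each run was compared with the profile of the other runs. Runs named in the text are those extreme in length, score, number of peaks, overlap, evenness or spacing, with those outside zone 3 or placed from outside the arms chosen after their values were seen. The members, and the settings used, were chosen with earlier results of these data known. Alternatives changed the joining gap, number of peaks, score limit, arms and placing. A release 6 gene table was not used, since builds differ.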

Additional observations from a re-analysis of the deposited data

How the results depend on the processing

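Of 97 values under alternative settings, 79 stayed inside the 95% interval of the reported value (order statistics for medians, Clopper-Pearson for shares), with 1.5 times as the limit for counts, among them all values with each arm left out in turn, and 18 moved. Some of the 79 could not move. Asking for at least 4 or at least 6 peaks left the same 76 runs, and leaving out chromosome 4 removed none. Leaving out any other arm kept most of the same runs. The total of 79 is therefore not a measure of stability. The 71 of 76 runs whose scores matched better in the direction found were judged by the count limit. As a share, that number has a 95% Clopper-Pearson interval of 85.3 to 97.8%. Its values of 59 with a single run as template, 61 with no shift and 54 with midpoints lie below that interval. A joining gap of 1000 bp gave 17 runs, with a median length of 8037 bp, 52.9% of them 8 to 9 kb long, 60.8% of bases covered and 41.2% with the strongest peak 2 to 3 kb from the nearer end. Without the lowest 10% of arm peaks by score, the median score was 13.4 and the median number of peaks 7.5. Without the lowest 25%, there were 44 runs with medians of 7988 bp, 6 peaks, a score of 14.4 and 52.9% of bases covered; 47.7% were 8 to 9 kb long and 52.3% had the strongest peak 2 to 3 kb from the nearer end. Fewer peaks and higher scores follow from removing low peaks; the cause of the other shifts was not tested. The median overlap with the other runs was 81.8% with a single run as template, 59.5% with no shift, 66.3% with bins of 100 bp and 42.8% with midpoints widened to 300 bp. Direction was the same as reported in 74, 60, 76 and 56 of 76 runs in those 4 settings, and in 76 with shifts of up to 2000 bp and with the profile made from the other arms. The share with the strongest peak 2 to 3 kb from the end, the zones, the reading without the strongest peak and the placing of other runs were added after the data had been seen. No paired analysis was possible because the file ties no peak to a library, and for the same reason replicates could not be left out. Read depth is unknown, so its effect on which weak peaks were called was not tested.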

Other observations

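The closest runs of an arm were the pair on 2R at bases 17626149 to 17634766 and 17697167 to 17705093, 62.4 kb apart, and the pair on 3R at bases 26143204 to 26150453 and 26222096 to 26230138, 71.6 kb apart. All 4 were placed in the reversed direction. The 2R runs had 11 peaks each, with strongest scores of 26.96 and 36.39. The 3R runs differed more, with strongest scores of 15.89 and 34.49.

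Of the member scores, 221 of 628 (35.2%) equalled a Poisson tail at the rate of 80.06, and 8 of the 76 strongest peaks did. Over the whole list 50.4% of scores matched at this rate and up to 25.9% at rates more than 1 away, so a share of the matches can be coincidence and no pileup is derived from them.

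The longest run, on X at bases 16235018 to 16244452, had a peak of 24.5 at bases 16244114 to 16244452, beyond zone 7, and without it the run would have ended within the range of the other long runs. No chain of 4 peaks was 7 to 10 kb long, among 30 chains of 4 on the arms.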
